A study of Mus musculus with 6 samples.

Results

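The retinoic acid signalling genes described here are *Rara*, *Rarg*, *Rxra* and *Rxrb*, which encode nuclear receptors, *Crabp1* and *Crabp2*, which encode cellular retinoic acid binding proteins, *Rdh10* and *Aldh1a2*, which encode enzymes that make retinoic acid, and *Cyp26b1*, which encodes an enzyme that degrades it. They were taken by gene name from a table of FPKM, which are fragments per kilobase of a gene scaled to the size of the library, and are 9 of its 54532 genes. The table comes from RNA-seq of STRA8+ cells isolated from mouse testes. The 3 control libraries are labelled with the genotype Cre, and the 3 conditional knockout (cKO) libraries with the genotype *Srsf1* knockout. *Srsf1* encodes a serine/arginine-rich splicing factor. The promoter that drives Cre, the age of the mice and the way in which STRA8+ cells were sorted are not given in the sources used here, and nothing says whether a library came from 1 animal or from a pool. Values of single libraries are given in the order of replicates 1 to 3. The p-values measure the spread between these libraries, which may be partly technical.

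Retinoic acid is made from retinol in a pair of oxidation steps, from retinol to retinal by retinol dehydrogenases such as RDH10 and from retinal to retinoic acid by the ALDH1A enzymes. It binds RAR receptors, which act on DNA as dimers with RXR receptors, while CRABP proteins bind it in the cytoplasm and CYP26 enzymes oxidise it to inactive forms. In the testis, retinoic acid drives the differentiation of spermatogonia and the entry into meiosis, and *Stra8*, the gene by which these cells are named, is among its known targets.

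Between 14447887 and 17310353 fragments per library could be counted back from the FPKM. *Srsf1*, the targeted gene, had 45.2 to 84.7 FPKM in the control libraries and 4.94 to 5.17 FPKM in the cKO libraries. Germ cell markers were abundant in all 6 libraries, with a summed level of *Ddx4*, *Dazl*, *Mael* and *Tex101* of 1281 to 1477 FPKM in control and 1301 to 1589 FPKM in cKO libraries. Of these 4 genes, *Dazl* was called higher (limma adjusted p = 0.0159) and *Mael* (0.00607) and *Ddx4* (0.048) lower in cKO libraries. Over all genes tested, 11.8% were called higher and 22.2% lower. The groups also differed in the later germ cell stages. The summed level of 10 spermatid markers was 2402 to 8111 FPKM in control libraries, highest in control replicate 2, and 7.41 to 8.97 FPKM in cKO libraries. The summed level of 10 pachytene spermatocyte markers was 1095 to 1308 FPKM in control and 228.0 to 254.6 FPKM in cKO libraries. All 10 genes of both lists were called lower in cKO libraries, as were 22.2% of all genes tested. The part of this difference in the results below was not tested. In bulk samples, fewer cells of a type and less RNA per cell cannot be told apart.

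*Crabp2*, *Cyp26b1* and *Crabp1* were higher in the *Srsf1* cKO libraries. The calls of *Crabp2* and *Cyp26b1* held under all 16 other ways of processing described below, and that of *Crabp1* under 10. The mean FPKM in cKO libraries was 3.18 times the control mean for *Crabp2*, 2.40 times for *Cyp26b1* and 1.42 times for *Crabp1*. None of the 4 receptor genes and neither gene of retinoic acid synthesis passed the test. Thus 3 of 9 genes were called higher and 0 lower by limma (Benjamini-Hochberg adjusted p of at most 0.05 over all 15451 genes tested), where 11.8% of all genes tested were called higher and 22.2% lower. These counts over all genes were 5164 higher and 2527 lower with quantile normalization, against 1821 and 3437, and the count of higher genes ranged from 965 (without cKO replicate 3) to 1752 (without control replicate 2) when each library was left out. Of the 9 genes, 2 (*Rarg* and *Aldh1a2*) were lower in limma at an unadjusted p under 0.05, and limma-voom on the counted fragments also called 0 of them lower. All 3 cKO libraries lay above all 3 control libraries for 3 genes and below them for 2, where this held for 21.8% and 28.6% of all genes tested (50.4% in either direction). All 9 genes reached the mean of at least 1 FPKM that was needed for testing. Their median log2 fold change was 0.068, against -0.0082 for all genes tested.

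**Figure D1:**
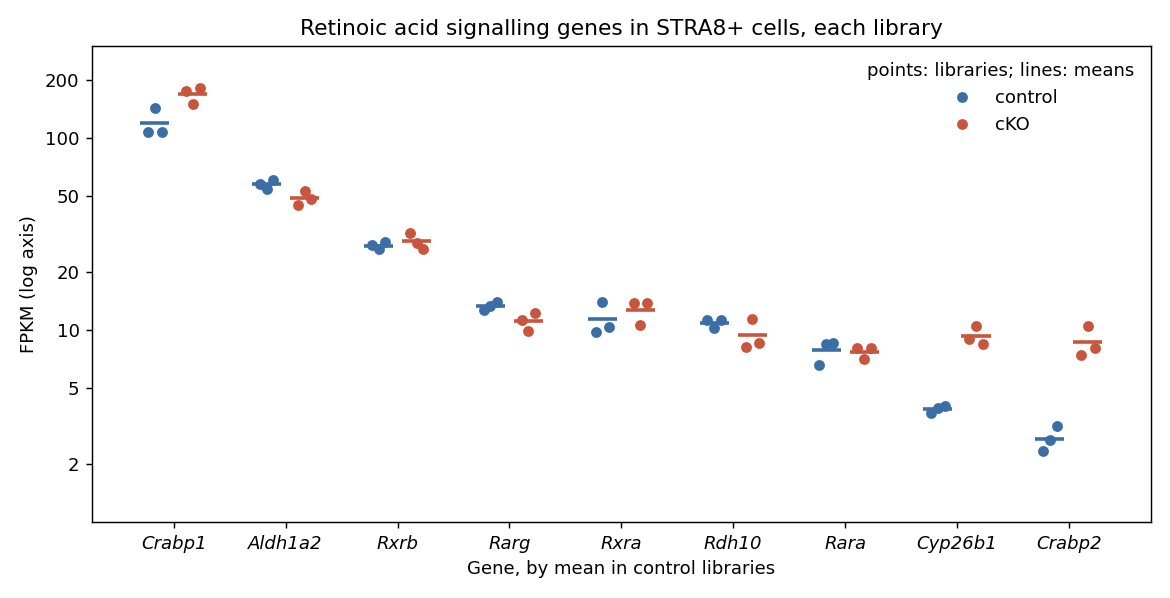
FPKM (log axis) of the 9 retinoic acid signalling genes in each of the 3 control (blue) and 3 cKO (red) libraries of STRA8+ cells, with genes ordered by their control mean and lines at the group means. The red points lie above the blue points for *Crabp1*, *Cyp26b1* and *Crabp2*, and below them for *Aldh1a2* and *Rarg*.

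In the control libraries, *Crabp1* had the highest level per length, with 118.8 ± 20.8 FPKM (SD, n = 3). It was followed by *Aldh1a2* with 57.2 ± 3.01 FPKM and *Rxrb* with 27.4 ± 1.14 FPKM, and these 3 genes did not overlap in any control library. *Rarg* (13.3 ± 0.65 FPKM), *Rxra* (11.4 ± 2.27 FPKM) and *Rdh10* (10.9 ± 0.60 FPKM) followed. *Rarg* and *Rxra* overlapped, as did *Rxra* and *Rdh10*, so the place of *Rxra* was not resolved, while *Rarg* was above *Rdh10* in every control library. *Rara* (7.87 ± 1.11 FPKM), *Cyp26b1* (3.88 ± 0.18 FPKM) and *Crabp2* (2.72 ± 0.41 FPKM) were lowest, and each was separate from its neighbours. In the cKO libraries, the first 3 genes held the same places, again without overlap. The other 6 genes lay between 7.04 and 12.2 FPKM or, for *Rxra*, up to 13.8 FPKM, and each overlapped the next in order. *Cyp26b1* lay below *Rara* in every control library and above *Rara* in every cKO library. *Crabp2* lay below all 8 other genes in the control libraries and within the range of *Rdh10* and *Rara* in the cKO libraries.

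CRABP1 and CRABP2 are small, closely related cytoplasmic proteins that bind retinoic acid. CRABP2 is known to deliver it to RAR in the nucleus, and CRABP1 has been linked to its retention and breakdown in the cytoplasm. The genes lie on different chromosomes of GRCm38, *Crabp1* (ENSMUSG00000032291) on chromosome 9 at 54764748 to 54773110 and *Crabp2* (ENSMUSG00000004885) on chromosome 3 at 87948666 to 87953376, both on the plus strand. In the GENCODE M21 transcripts their coding sequences, of 411 and 414 bases, were identical at 70.8% of 411 aligned bases. The first 120 coding bases are shown to let the genes be compared at the level at which fragments were assigned to them, with the 38 positions at which they differ in capitals.
Crabp1: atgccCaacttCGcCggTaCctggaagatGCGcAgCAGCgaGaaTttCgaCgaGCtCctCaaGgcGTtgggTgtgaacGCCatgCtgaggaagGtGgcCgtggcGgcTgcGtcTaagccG
Crabp2: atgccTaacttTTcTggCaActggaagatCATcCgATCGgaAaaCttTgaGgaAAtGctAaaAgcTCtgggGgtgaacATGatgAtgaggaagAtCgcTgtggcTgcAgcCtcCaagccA
None of the 100-base windows of either gene occurred in another annotated gene, and the same held for the other 7 genes. No exon of the 9 genes overlapped an exon of another gene in this annotation.

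*Crabp2* had 2.34, 2.66 and 3.15 FPKM in the control libraries and 7.37, 10.5 and 8.06 in the cKO libraries. Even the lowest cKO library was above every control library. These values rest on 51 to 72 fragments per control library and 153 to 204 fragments per cKO library. On the log2(FPKM + 1) scale, which understates the change of low genes, *Crabp2* rose by 1.37 with a standard error of 0.15 (limma, adjusted p = 6.23e-04). It was called higher under all 16 alternatives, with a log2 fold change from 1.23 to 1.70.

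*Crabp1* had 106.7, 142.8 and 107.0 FPKM in the control libraries and 173.9, 150.5 and 181.2 in the cKO libraries. The groups did not overlap, but control replicate 2, the highest control library, came close to cKO replicate 2, the lowest cKO library. From 1409 to 2209 fragments were counted per library. *Crabp1* rose by 0.51 on the log2(FPKM + 1) scale, with a standard error of 0.13 (limma, adjusted p = 0.0261). The call depended on the libraries used. The adjusted p was 0.088 without control replicate 1, 0.0852 without control replicate 3, 0.079 without cKO replicate 1 and 0.0911 without cKO replicate 3. It was 0.00454 without control replicate 2, 0.0306 without cKO replicate 2 and 0.0565 without a filter on FPKM.

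Both binding protein genes thus rose, from levels that differ widely. *Crabp1* had 34.0 to 53.6 times the FPKM of *Crabp2* in control libraries and 14.3 to 23.6 times in cKO libraries. The share of the summed CRABP FPKM that came from *Crabp1* was 97.9%, 98.2% and 97.1% in the control libraries and 95.9%, 93.5% and 95.7% in the cKO libraries. The mean difference was -2.68 percentage points, and -4.20 with fragments in place of FPKM. The shares did not overlap (exact permutation test, two-sided, p = 0.1, which is the smallest p that 3 libraries against 3 can give, and 0.15 after Benjamini-Hochberg adjustment over 3 such shares). *Crabp1* therefore accounted for most of the CRABP transcripts in either genotype.

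**Figure D2:**
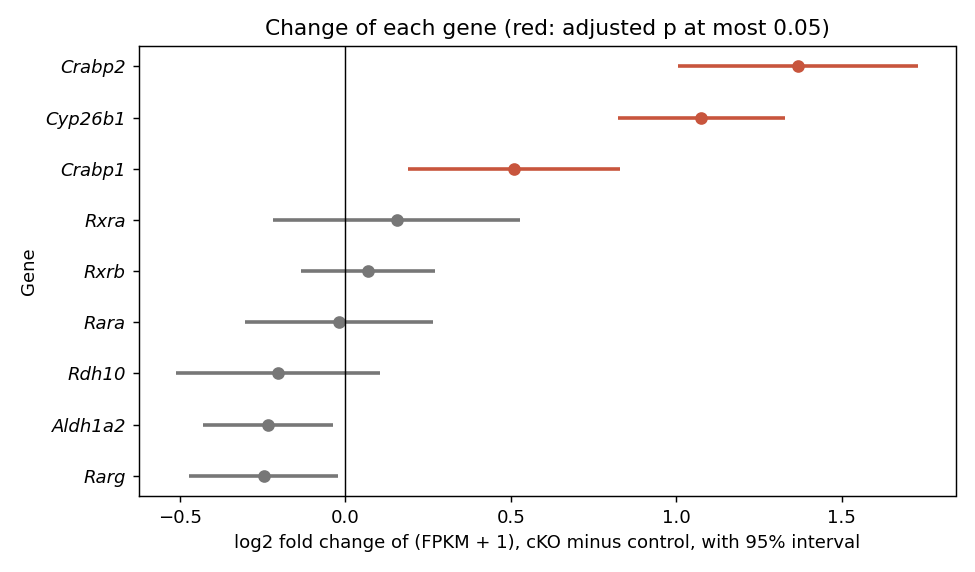
Log2 fold change of (FPKM + 1) in cKO against control libraries for each of the 9 genes, with the 95% interval from limma, and in red those with an adjusted p of at most 0.05. The intervals of *Crabp2*, *Cyp26b1* and *Crabp1* lie above 0, those of *Aldh1a2* and *Rarg* lie just below 0 without passing the adjusted threshold, and the other 4 include 0.

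*Cyp26b1* encodes a cytochrome P450 that inactivates retinoic acid, and in the fetal testis it is known to keep germ cells from entering meiosis. *Cyp26b1* (ENSMUSG00000063415, chromosome 6 of GRCm38, 84571414 to 84593908, minus strand) had 3.69, 3.91 and 4.04 FPKM in the control libraries and 8.97, 10.5 and 8.45 in the cKO libraries. The groups were well apart and the control libraries lay close to each other, with 321 to 374 fragments per control library and 687 to 825 per cKO library. *Cyp26b1* rose by 1.08 on the log2(FPKM + 1) scale with a standard error of 0.11 (limma, adjusted p = 3.47e-04) and was called higher under all 16 alternatives, from 0.99 to 1.34.

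Of its 2 paralogs, *Cyp26a1* was tested and not called. It had 2.98 to 4.86 FPKM in control and 2.91 to 3.66 FPKM in cKO libraries (log2 fold change -0.22, limma adjusted p = 0.37), and *Cyp26c1* had 0.38 to 1.19 FPKM over all libraries and was not tested. *Cyp26b1* made up 40.0% to 52.3% of the summed FPKM of the 3 *Cyp26* genes in control libraries and 64.3% to 70.9% in cKO libraries. The summed level itself was 7.05 to 10.1 FPKM in control and 12.6 to 15.0 FPKM in cKO libraries. Set beside the main enzyme of synthesis, *Cyp26b1* had 0.0643 to 0.0723 times the FPKM of *Aldh1a2* in control libraries and 0.176 to 0.200 times in cKO libraries.

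The sequences before the RefSeq transcription starts of *Crabp1* and *Cyp26b1* are shown because these genes rose, in the orientation of the gene, with capitals for the GC box GGGCGG on either strand. RefSeq windows were at hand for 7 of the 9 genes (13 windows, GRCm38.p6), and none for *Crabp2* and *Rdh10*. The stretch for *Crabp1* is 250 bases long (chr9:54764498-54764747, plus strand), and that for *Cyp26b1* holds the 152 bases of its window that lie outside the deposited gene (chr6:84593909-84594060, minus strand).
Crabp1: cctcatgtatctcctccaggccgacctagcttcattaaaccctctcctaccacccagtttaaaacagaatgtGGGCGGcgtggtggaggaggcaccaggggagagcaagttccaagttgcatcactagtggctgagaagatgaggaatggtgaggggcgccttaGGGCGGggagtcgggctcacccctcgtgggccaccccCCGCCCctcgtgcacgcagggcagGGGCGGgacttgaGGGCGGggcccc
Cyp26b1: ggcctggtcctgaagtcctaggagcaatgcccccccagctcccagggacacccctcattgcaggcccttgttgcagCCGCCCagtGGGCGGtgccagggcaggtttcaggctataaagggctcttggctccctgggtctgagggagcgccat
The stretch before *Crabp1* holds 5 GC boxes and that before *Cyp26b1* holds 2. Over the 250 bases before each of 32851 RefSeq starts, 32.7% held at least 1 GC box. Of the 13 windows of these genes, 9 held at least 1. These windows are not separate genes, since *Rara* has 4 of them and *Rarg*, *Rxra* and *Rxrb* have 2 each. Neither stretch held the RAR half-sites AGGTCA or AGTTCA on either strand, which occurred in 14.0% and 11.8% of all windows. Among the 13 windows, AGGTCA occurred in 2 (*Rarg* and *Rxra*) and AGTTCA in 1 (*Rara*). The direct repeats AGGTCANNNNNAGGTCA, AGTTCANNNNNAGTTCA and AGGTCANNAGGTCA, which contain these half-sites, occurred in none of the 13 and in 0.00913%, 0.0213% and 0.00913% of all windows. A match is a run of letters and not a shown binding site, and sequences farther from the start were not searched.

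RDH10 oxidises retinol to retinal, and ALDH1A2 oxidises retinal to retinoic acid. *Aldh1a2* (ENSMUSG00000013584, chromosome 9 of GRCm38, 71215789 to 71296243, plus strand) had 57.3, 54.1 and 60.1 FPKM in the control libraries and 44.8, 52.9 and 48.0 in the cKO libraries. All 3 cKO libraries lay below all 3 control libraries, as they did for 28.6% of the genes tested, and the cKO mean was 84.9% of the control mean. The log2 fold change of -0.23 (standard error 0.083) missed the threshold (limma adjusted p = 0.0699) and passed it only without cKO replicate 2 (adjusted p = 0.039).

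*Rdh10* (ENSMUSG00000025921, chromosome 1 of GRCm38, 16105774 to 16133734, plus strand) had 11.2, 10.2 and 11.3 FPKM in the control libraries and 8.18, 11.5 and 8.60 in the cKO libraries. The groups overlapped because of cKO replicate 2, which was above every control library. The log2 fold change was -0.20 with a 95% interval from -0.51 to 0.11 (limma adjusted p = 0.271), and the adjusted p was 0.0449 without cKO replicate 2. *Aldh1a2* made up 96.4% to 97.0% of the summed FPKM of the 3 *Aldh1a* genes in control and 89.5% to 96.0% in cKO libraries. The lowest share was in cKO replicate 1, where *Aldh1a1* had 4.98 FPKM, against 1.52 to 2.21 FPKM in the other 5 libraries.

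RAR receptors bind retinoic acid, and RARA and RARG are the forms known to act in Sertoli cells and in spermatogonia, respectively. *Rarg* (ENSMUSG00000001288, chromosome 15 of GRCm38, 102234938 to 102257517, minus strand) had 12.7, 13.3 and 14.0 FPKM in the control libraries and 11.2, 9.90 and 12.2 in the cKO libraries. All 3 cKO libraries lay below all 3 control libraries by a small margin. The log2 fold change was -0.25 (standard error 0.095, limma adjusted p = 0.0877), and it missed the threshold under every alternative.

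*Rara* (ENSMUSG00000037992, chromosome 11 of GRCm38, 98927818 to 98974942, plus strand) had 6.59, 8.44 and 8.57 FPKM in the control libraries and 8.08, 7.04 and 8.02 in the cKO libraries. The groups overlapped, and the 95% interval of the log2 fold change ran from -0.30 to 0.26 (limma adjusted p = 0.912). The direction of this small value turned with the scaling. *Rarb*, the other RAR gene, had 0.16 to 0.61 FPKM over the 6 libraries, so that *Rara* and *Rarg* made up nearly all RAR transcripts. The share of summed RAR FPKM from *Rara* was 33.9%, 37.7% and 37.5% in control and 41.5%, 41.2% and 39.2% in cKO libraries. Each cKO share was above each control share, a mean difference of 4.23 percentage points (exact permutation test, two-sided, p = 0.1, the smallest that 3 against 3 can give, and 0.15 after Benjamini-Hochberg adjustment over 3 shares).

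RXR receptors are the partners of RAR and of other nuclear receptors. *Rxrb* (ENSMUSG00000039656, chromosome 17 of GRCm38, 34031812 to 34038393, plus strand) had 27.5, 26.3 and 28.5 FPKM in the control libraries and 31.8, 28.3 and 26.5 in the cKO libraries. *Rxra* (ENSMUSG00000015846, chromosome 2 of GRCm38, 27676440 to 27762957, plus strand) had 9.81, 14.0 and 10.4 FPKM in the control libraries and 13.8, 10.7 and 13.8 in the cKO libraries. The groups overlapped for both genes. The 95% intervals of the log2 fold change were -0.13 to 0.27 for *Rxrb* (limma adjusted p = 0.576) and -0.22 to 0.53 for *Rxra* (limma adjusted p = 0.482). *Rxrg* had at most 0.29 FPKM in any library. *Rxrb* gave 64.9% to 73.5% of the summed RXR FPKM in control and 65.4% to 72.4% in cKO libraries (exact permutation test, two-sided, p = 0.6), and this share was lowest in control replicate 2 and cKO replicate 3.

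**Figure D3:**
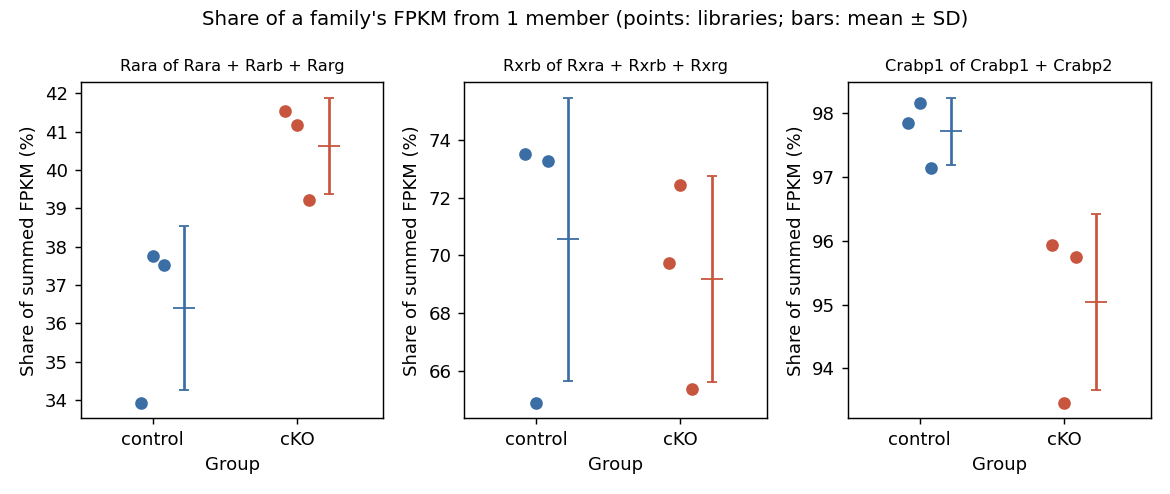
Share of the summed FPKM of a gene family that came from 1 member (percent, axes not starting at 0), for *Rara* among the RAR genes, *Rxrb* among the RXR genes and *Crabp1* among the CRABP genes, with points for the 3 libraries of each group and bars for mean ± SD. The groups do not overlap for *Rara* and *Crabp1*, for which the exact p is 0.1, and overlap for *Rxrb*.

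Among 46 other genes of the pathway, 32 reached a mean of 1 FPKM, of which 7 were called higher and 5 lower by limma, where 11.8% of all genes tested were called higher and 22.2% lower. The counts were 16 higher and 2 lower with quantile normalization and 11 and 3 with limma-voom. Their median log2 fold change was 0.21, against -0.0082 for all genes tested. Of 4 tested genes that convert retinol and retinal, 3 fell and 1 rose. *Rdh11*, a retinal reductase gene, fell from 21.2 ± 2.27 to 9.71 ± 1.82 FPKM (SD, n = 3, log2 fold change -1.06, limma adjusted p = 0.00136), *Rdh14* fell from 10.2 ± 1.03 to 6.77 ± 0.29 FPKM (-0.52, adjusted p = 0.00662) and *Dhrs4* fell from 4.28 ± 0.23 to 2.97 ± 0.54 FPKM (-0.42, adjusted p = 0.0461). *Rdh13* rose from 2.21 ± 0.34 to 3.72 ± 0.075 FPKM (0.56, adjusted p = 0.0118). The groups did not overlap for these 4 genes, as for 50.4% of all genes tested. The call of *Dhrs4* held under 4 of 15 alternatives, and that of *Rdh11* under all 16.

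None of the 3 tested genes of retinol uptake, binding and storage passed the test, where 34% of all genes tested passed it in either direction. *Stra6*, the gene of the retinol uptake receptor, had 0.070 to 0.30 FPKM over all libraries. *Lrat*, whose enzyme esterifies retinol for storage, had 0.55 to 0.72 FPKM in control and 0.18 to 0.27 FPKM in cKO libraries, below the level needed for testing. *Dhrs3*, a retinal reductase gene, had 0.42 to 0.74 FPKM, and *Aldh1a3*, the third *Aldh1a* gene, had 0.088 to 0.29 FPKM. *Fabp5*, which encodes another protein that binds retinoic acid, rose from 0.56, 1.28 and 0.75 FPKM in control to 2.25, 2.37 and 2.07 FPKM in cKO libraries (log2 fold change 0.81, limma adjusted p = 0.0121).

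Of 7 coactivator genes, 4 rose, where 11.8% of all genes tested were called higher. *Ncoa3* rose from 32.9 ± 2.03 to 48.3 ± 2.89 FPKM (SD, n = 3, log2 fold change 0.54, limma adjusted p = 0.0020) and *Crebbp*, an acetyltransferase gene, from 13.0 ± 0.77 to 19.5 ± 3.05 FPKM (0.55, adjusted p = 0.0117). *Ep300* (0.31, adjusted p = 0.0405) and *Med1* (0.25, adjusted p = 0.0433) were near the threshold and were called under 7 and 6 of 16 alternatives. *Kat2b* went the other way, from 1.48 ± 0.21 to 0.85 ± 0.25 FPKM, and was not called (-0.42, limma adjusted p = 0.0873). All 3 cKO libraries lay below control for *Kat2b*, as for 28.6% of all genes tested. Of 4 corepressor genes tested, *Sin3a* rose from 44.7 ± 1.14 to 56.8 ± 3.29 FPKM (0.34, adjusted p = 0.00912) and *Hdac3* fell from 19.9 ± 0.47 to 16.5 ± 0.65 FPKM (-0.25, adjusted p = 0.0271). The call of *Hdac3* held under 7 of 16 alternatives. Over all genes tested, 34% were called in either direction.

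**Figure D4:**
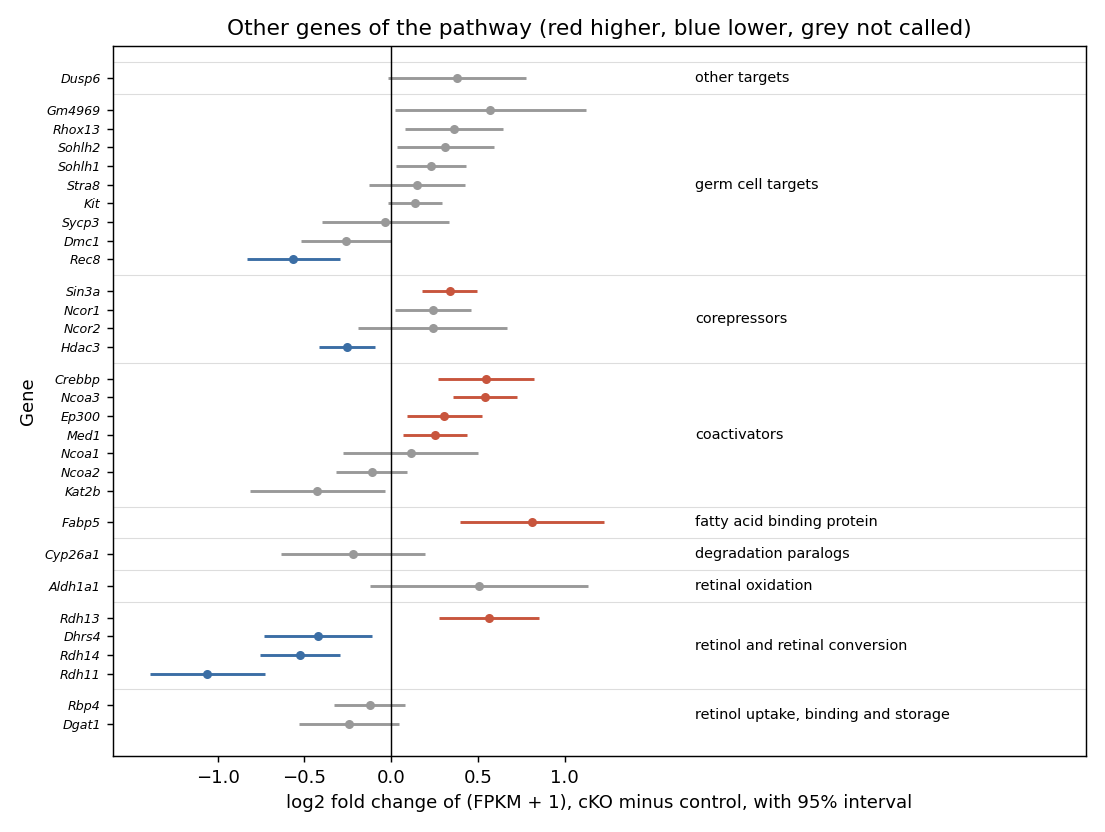
Log2 fold change of (FPKM + 1) with its 95% interval in cKO against control libraries for most of the 32 tested genes of the pathway other than the 9, grouped by role (red higher, blue lower, grey not called). The largest fall is that of *Rdh11* and the largest rise that of *Fabp5*, while 4 of 7 coactivator genes rose and 1 of 9 germ cell target genes, *Rec8*, fell.

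Of 9 tested germ cell genes that retinoic acid is known to induce, *Rec8*, which encodes a meiotic cohesin subunit, was the only gene called, where 34% of all genes tested were called in either direction. It fell from 20.7 ± 2.45 to 13.7 ± 1.38 FPKM (SD, n = 3, log2 fold change -0.56, limma adjusted p = 0.00892). All 3 cKO libraries lay above all 3 control libraries for 4 of the 9 (*Gm4969*, *Kit*, *Rhox13* and *Sohlh1*), where this held for 21.8% of all genes tested. *Rhox13* (log2 fold change 0.36, limma adjusted p = 0.0537), *Sohlh1* (0.23, adjusted p = 0.0801) and *Sohlh2* (0.31, adjusted p = 0.0814) were called higher under 6, 3 and 5 of 16 alternatives. *Stra8*, which is needed for meiotic entry, had 261.7, 222.1 and 249.5 FPKM in the control libraries and 242.1, 312.7 and 261.7 in the cKO libraries (log2 fold change 0.15, limma adjusted p = 0.359). The groups overlapped, and *Stra8*, the label of these cells, was abundant in all 6 libraries. *Gm4969*, the name of *Meiosin* in this table, had 121.0 to 223.8 FPKM in control and 224.7 to 291.6 FPKM in cKO libraries (log2 fold change 0.57, limma adjusted p = 0.10). *Kit*, the receptor gene of differentiating spermatogonia, had 36.3 to 37.1 FPKM in control and 38.1 to 42.0 FPKM in cKO libraries (log2 fold change 0.14, limma adjusted p = 0.15). Of 6 targets known from other tissues, 2 were tested and neither was called.

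Somatic cells of the testis also express parts of this pathway, so the markers of these cells were compared with the genes that rose. The summed level of 10 Sertoli cell markers was 80.0 to 118.4 FPKM in control and 71.2 to 146.1 FPKM in cKO libraries. Of the 8 tested, 1, *Rhox5*, was called higher (log2 fold change 0.72, limma adjusted p = 0.0277), where 11.8% of all genes tested were called higher. Most of the sum came from *Clu* and *Ctsl*, with means of 52.3 and 26.0 FPKM over the 6 libraries. The sum was highest in cKO replicate 1 and lowest in cKO replicate 2. Among the cKO libraries, *Crabp2* and *Cyp26b1* were highest and *Crabp1* was lowest in cKO replicate 2. *Sox9*, which defines Sertoli cells, had 1.15, 0.80 and 1.50 FPKM in control and 2.97, 0.71 and 1.08 FPKM in cKO libraries. The part of Sertoli cell RNA in the levels of the 9 genes was not tested.

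Of the 6 peritubular markers, the smooth muscle actin gene *Actg2* fell from 16.2, 47.9 and 17.0 FPKM to 0.245, 0.263 and 0.634 FPKM, and was highest in control replicate 2. The other 5 had at most 3.19 FPKM in any library, and each had a higher mean in cKO than in control libraries. Only *Acta2* (limma adjusted p = 0.192) and *Tagln* (limma adjusted p = 0.055, with all 3 cKO libraries above control) of these 5 were tested. With *Actg2*, the 6 peritubular markers summed to 19.9 to 54.4 FPKM in control and 7.31 to 8.41 FPKM in cKO libraries. This sum was lower in cKO libraries only because of *Actg2*, and does not show the direction of the other 5. The 6 Leydig cell markers summed to 2.95 to 14.0 FPKM in control and 6.34 to 10.7 FPKM in cKO libraries. Of these, 2 were tested and none was called, where 34% of all genes tested were called in either direction. *Star*, the cholesterol transport gene, had an adjusted p of 0.0511 in limma with all 3 cKO libraries above control. Markers of macrophages and blood summed to 4.94 to 8.45 FPKM in control and 5.16 to 6.46 FPKM in cKO libraries. *Insl3*, *Lhcgr*, *Hbb-bs* and *Hba-a1* were listed at 0 in at least 1 library. *Crabp2* and *Cyp26b1* were called higher without control replicate 2, without cKO replicate 1 and without both, the libraries that stood apart in spermatid and Sertoli cell marker RNA. The spermatid markers still summed to 2402 and 2434 FPKM in the other control libraries, so this does not bear on their part in the result. Sertoli cell markers still summed to 105.3 and 118.4 FPKM in those control libraries and to 71.2 and 89.4 FPKM in cKO replicates 2 and 3. Leaving out libraries therefore does not test the part of Sertoli cell RNA either. The joint omission was chosen after the data were seen. *Crabp1* was called without control replicate 2 and without both, but not without cKO replicate 1 alone (limma adjusted p = 0.079).

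**Figure D5:**
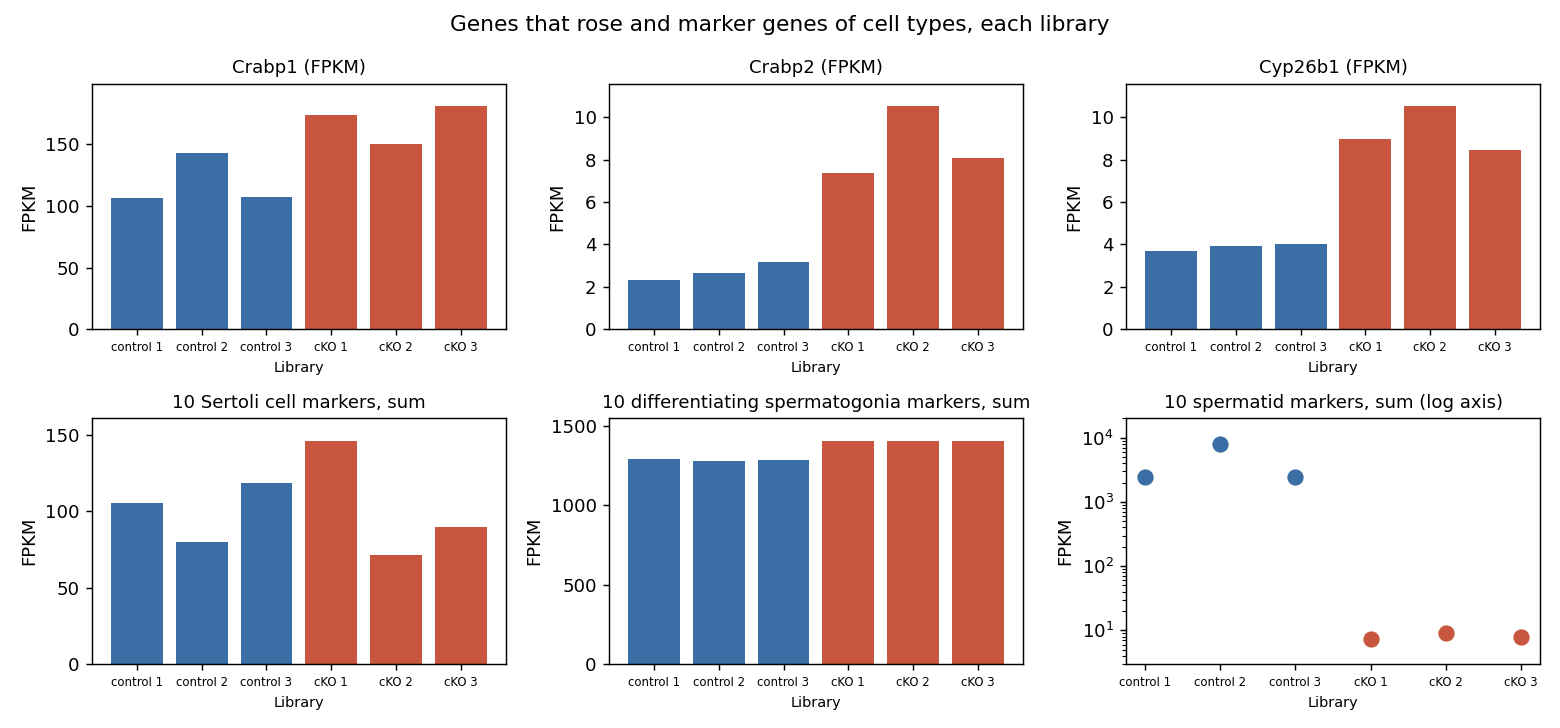
Levels of *Crabp1*, *Crabp2* and *Cyp26b1* (FPKM) and the summed FPKM of 10 Sertoli cell markers, 10 markers of differentiating spermatogonia and, on a log axis, 10 spermatid markers in each library (blue control, red cKO). In cKO replicate 2, where the Sertoli cell markers are lowest, *Crabp2* and *Cyp26b1* are highest and *Crabp1* is lowest of the cKO libraries. The sums of differentiating spermatogonia and spermatid markers do not overlap between the groups. Of the differentiating spermatogonia markers only *Dmrtb1* was called, as lower.

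The 10 undifferentiated spermatogonia markers summed to 34.7 to 41.7 FPKM in control and 37.7 to 43.3 FPKM in cKO libraries. Of 7 tested, *Ret* was called higher and *Id4* lower, where 11.8% of all genes tested were called higher and 22.2% lower. The 10 markers of differentiating spermatogonia summed to 1278 to 1290 FPKM in control and 1402 to 1406 FPKM in cKO libraries. All 3 cKO sums thus lay above all 3 control sums, which held for 21.8% of single genes tested. Most of the sum came from *Prss50*, *Uchl1* and *Stra8*. The groups overlapped for each of these genes, and none was called (limma adjusted p = 0.671, 0.389 and 0.359). Of the 10 markers only *Dmrtb1* was called, as lower, where 34% of all genes tested were called in either direction. The part of the difference between these sums in the levels of the 9 genes was not tested. Of 10 early meiotic prophase markers only *Spo11* was called, as lower, where 34% of all genes tested were called in either direction. The sums of these 10 markers overlapped (1026 to 1368 FPKM in control and 1077 to 1375 FPKM in cKO libraries).

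The genes whose levels over the 6 libraries were most like those of *Crabp1*, the most abundant of the 9, were *Mdh2*, a mitochondrial malate dehydrogenase gene, *Abcc4*, a transporter gene, and *Ftl1*, a ferritin light chain gene, with a Pearson r of log2(FPKM + 1) from 0.996 to 0.998. Like *Crabp1*, each was higher in control replicate 2 than in the other control libraries. Those most like *Crabp2*, which changed most, were *Melk*, a kinase gene of dividing cells, *Npc1*, a cholesterol transport gene, and *Gal*, which encodes the peptide galanin (r from 0.997 to 0.999). *Gal* had 13.6, 15.3 and 17.5 FPKM in control and 33.3, 42.7 and 37.9 FPKM in cKO libraries. These correlations are across 6 libraries that fall into 2 groups, and 355 of the 8928 genes compared had an r above 0.95 with *Crabp2* and 183 with *Crabp1*, so they describe a pattern that many genes share.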

How the data were processed

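Gene levels were taken from 1 table of FPKM that the authors deposited, with a column for each library, matched to its label by title, and the gene length. The submitters' processing notes name HISAT2 2.0.5 and mm10. The counting tool is not given in the sources used here, nor whether counting used strand. FPKM multiplied by gene length fell within 0.02 of a whole multiple of 1 step for 99.996% to 100% of values above 0 in each library, which gave the fragments per gene. The deposited FPKM hold a factor for each library of 0.971 to 1.05 times the sum of fragments.

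The filter kept genes whose mean FPKM over all 6 libraries was 1 or more. They were tested as log2(FPKM + 1) with limma 3.58.1 in R 4.3.3 (eBayes with an intensity trend), two-sided, with Benjamini-Hochberg adjustment over all 15451 genes and a threshold of 0.05. Shares within gene families were compared by exact permutation, and also computed with fragments in place of FPKM. The limma fits and the recovery of fragments were tested on simulated data. Coordinates are those of the table, and for 8 of the 9 genes equal those of GENCODE M21, which places the end of *Rxrb* at 34038399. Named genes were the 9 genes, each other pathway gene called, the paralogs of the 9, *Stra8*, *Rec8*, *Kit*, *Dhrs3* and *Stra6*, and the 3 genes of at least 5 FPKM most like the most abundant and the most changed of the 9. Values of some genes on the pathway list are not reported here. *Gm4969*, *Kat2b*, *Lrat*, *Rhox13*, *Sohlh1*, *Sohlh2* and the marker genes named singly were picked after their values were seen. The 9 genes and all lists were chosen with earlier results of these data known. Alternatives were the use of 0.1 as pseudocount, no filter or a minimum mean of 5 FPKM, median-of-ratios and quantile scaling, FPKM recomputed from fragments, eBayes without trend, the replicate number as a block, limma-voom on fragments, leaving out each library and, chosen after the data were seen, leaving out control replicate 2 with cKO replicate 1.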

Additional observations from a re-analysis of the deposited data

How the results depend on the processing

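*Crabp2* and *Cyp26b1* were called higher under all 16 alternatives, and *Crabp1* under 10. For *Crabp1* the adjusted p was 0.0761 with the replicate number as a block and 0.0565 with no filter, where more genes were tested. Of the 9 genes, 2 or 3 were called higher and 0 to 2 lower when each library was left out, with *Aldh1a2* and *Rdh10* called lower without cKO replicate 2. Uncalled values changed sign for *Rara* (log2 fold change 0.22 with quantile normalization, 0.023 with recomputed FPKM, 0.027 with limma-voom, and from -0.13 to 0.039 when each library was left out, with 0.029 without control replicate 2 and 0.037 without cKO replicate 2), for *Rxrb* (-0.0025 to 0.13 when each library was left out, with the lowest value without cKO replicate 1, and -0.033 without cKO replicate 1 and control replicate 2) and for *Rdh10* (0.0045 with quantile normalization). The share of RXR FPKM from *Rxrb* differed by -4.20 to 0.53 percentage points when each library was left out, with 0.11 without control replicate 1 and 0.53 without cKO replicate 3.

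Quantile normalization moved the median over all genes from -0.0082 to 0.21 (log2). It gave 5164 genes higher and 2527 lower, against 1821 and 3437 as reported, and 16 other pathway genes higher and 2 lower. With a minimum mean of 5 FPKM, 1950 genes were lower, since fewer were tested. Leaving out each library gave 965 to 1752 genes higher, and 5 or 6 other pathway genes higher and 3 to 6 lower. Without control replicate 2 and cKO replicate 1, 3 other pathway genes were lower. With limma-voom, 11 were higher and 3 lower. The cause of the other changes was not tested.

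With the replicate number as a block, 891 genes were higher and 2870 lower, and 4 other pathway genes were higher and 3 lower. The labels do not say that the numbers pair the libraries. The deviations of same-numbered libraries from their group means had correlations of -0.0014, -0.11 and 0.016, and not every library correlated best with its own number.

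The lowest gene of the 9, *Crabp2*, rests on 51 to 72 fragments per control library, and genes such as *Rarb* and *Rxrg* were too low to be tested.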
